A study of Cucumis sativus with 6 samples.

Results

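Cytochrome P450s (P450s) and UDP-glycosyltransferases (UGTs) were described in female buds of wild type cucumber (Cucumis sativus) and of plants with the Cshec2-/- genotype. The genes were chosen by their Swiss-Prot protein descriptions in a deposited list of 1589 genes that differ between the genotypes. Of 30 genes described as P450 or UGT, 3 of P450 families 77 and 86 and the P450 genes Csa6G088160, Csa6G088170 and Csa6G088710 were left out, which left 24. These were 18 P450 genes in 11 numbered families and 6 UGT genes in 5 families. The Pfam domain given for each gene matched its class in all 18 P450 and all 6 UGT genes. A name such as CYP84A1 is the described similarity of a cucumber gene, not its established identity. The reference protein description named the same family number for 17 of the 24 genes, another number for 0, and no family number for 7.

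The series title places CsHEC2 in fruit wart formation and cytokinin biosynthesis. There were 3 wild type and 3 Cshec2-/- libraries, all from female buds 7 days before anthesis, and genotype is the only labelled difference between them. The samples of each genotype were described as biological replicates. The number of plants or mutant lines behind each library, like the kind of mutation, is not given in the sources used here. The deposited values, in a normalised unit that the header does not name, summed over the listed genes to between 23592 and 24173 in the mutant libraries and to between 41126 and 59342 in wild type. The word HECATE was in the description of 0 listed genes. A gene described by another name would be missed, so it is not known whether CsHEC2 is listed, and it was not analysed here. Bud identity could not be checked in a list of selected genes.

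P450s are membrane-bound haem enzymes that insert oxygen into small molecules, with electrons passed on by a reductase and sometimes by cytochrome b5. UGTs attach a sugar from a UDP-sugar donor to an acceptor, often at a hydroxyl group that a P450 has made, which changes the acceptor's activity, solubility and place in the cell. Both are large plant gene families in which families are numbered by sequence similarity, and they act in the making and removal of hormones, lignin precursors, terpenoids, fatty acid derivatives and defence compounds.

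Of the 24 genes, 7 were higher and 15 lower in mutant buds with limma at an adjusted p of 0.05, and 2 did not pass. The share of genes passing was 92.7% over the whole list, with 18.4% higher and 74.3% lower. Since every listed gene had been selected by the authors for differing between these same libraries, these counts describe the genes and are no independent count of changes. The 22 of 24 that passed (91.7%) lay close to that background, with 29.2% higher and 62.5% lower. The authors' deposited table lists 7 of the 24 as higher and 17 as lower, beside 18.4% higher and 81.6% lower over all its genes. The 18 P450 genes held 5 higher and 12 lower genes with a median log2 change of -1.01, and the 6 UGT genes held 2 higher and 3 lower with a median of -0.63. The median over all listed genes was -0.77. Whether the P450 and UGT medians differ was not tested. By at least 1 on the log2 scale, 4 of the 24 genes were higher and 11 lower, against a background of 3.08% and 32.0%. At an adjusted p of 0.01, 5 were higher and 9 lower, against 12.3% and 40.0% of the list.

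**Figure D1:**
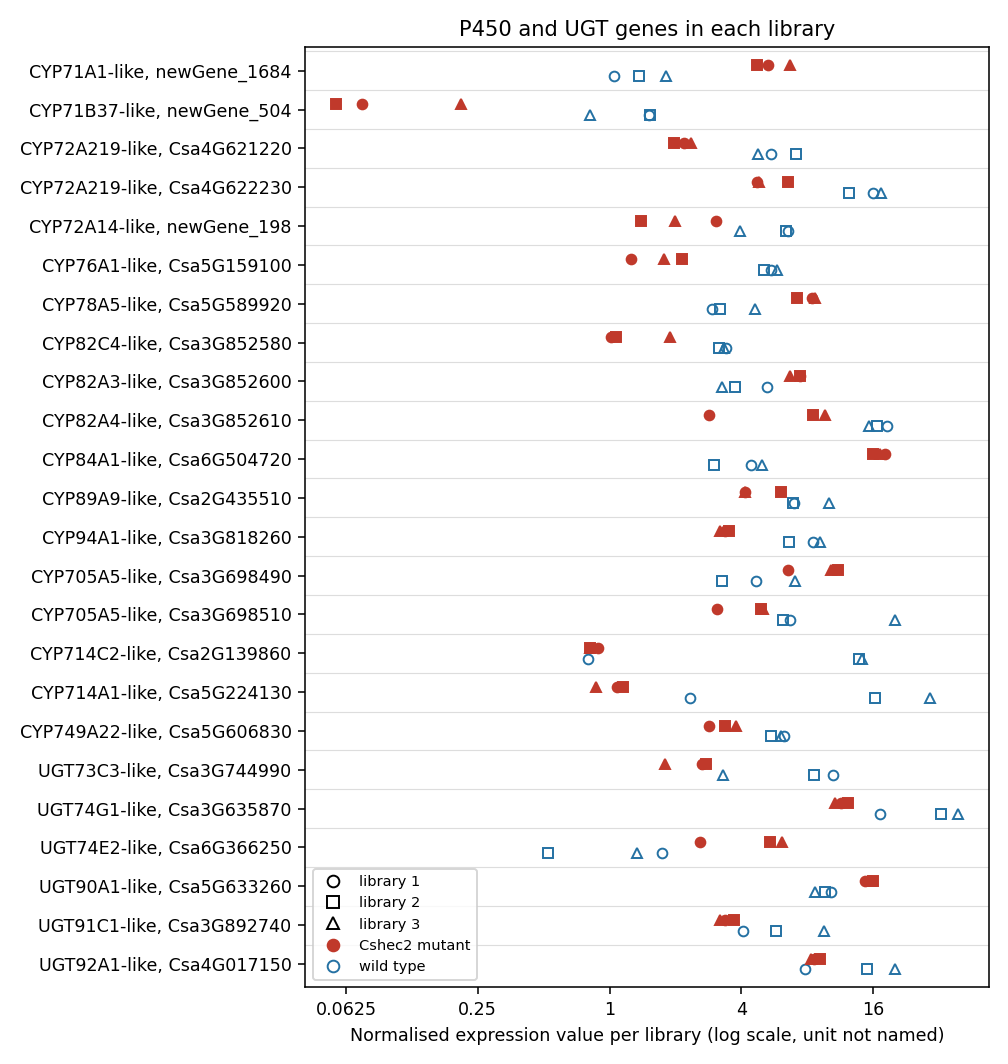
Normalised expression value (log axis, unit not named in the deposited header) of the 18 P450 and 6 UGT genes in each of the 3 mutant libraries (filled) and 3 wild type libraries (open), with the library number given by the marker shape. Mutant and wild type points are apart for 21 of the 24 genes, and wild type library 1 of the CYP714C2-like gene lies just below the mutant points.

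Values of mutant and wild type were fully apart for 21 of the 24 genes (87.5%), against 94.0% of all listed genes. Wild type varied more than the mutant for 18 of the 24, by the SD of the log2 values, which also held for 78.5% of the list. Median SDs were 0.28 (wild type) and 0.14 (mutant). In bulk buds, fewer cells of a type and less RNA per cell cannot be told apart, so a lower value is not a measure per cell.

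Median-of-ratios scaling over the list moved the median log2 change of all listed genes by 0.74, from -0.77 to -0.03. That scaling centres a list made mostly of lower genes by raising mutant values against wild type values. It works against lower calls and could hardly end a higher one. Whether it removes a real difference or an offset between libraries was not tested. All 7 higher genes passed after it, which is therefore no check of them, and 2 of the 15 lower genes did. Over the list 18.4% were higher and 14.2% lower after scaling, and 293 genes were higher both before and after it. Of the genes below 0, 4 lay above 0 after scaling without passing, and they are named where they are described. The share of all listed genes that changed sign is not given, here or for the keyword lists below.

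**Figure D2:**
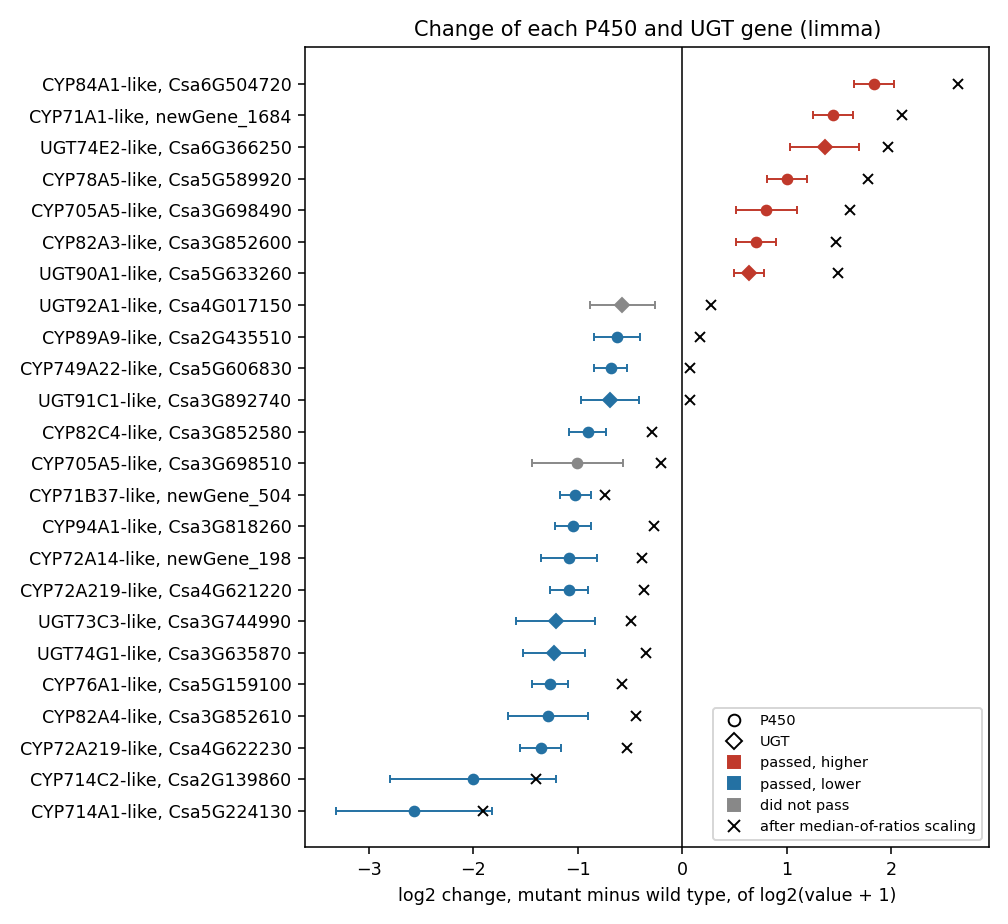
Log2 change of each P450 (circle) and UGT (diamond) gene, mutant minus wild type, on the log2(value + 1) scale with the standard error from limma, coloured by call, and the same change after median-of-ratios scaling (cross). The 7 higher genes lie from 0.64 to 1.83 as deposited. Scaling moved every change shown upward, so these genes stay above 0, and 4 of the lower-lying genes cross 0.

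Among the P450 genes that were higher, the CYP84A1-like gene Csa6G504720 had the largest change. CYP84A1 of Arabidopsis is the ferulate hydroxylase that leads to syringyl lignin and sinapate esters. Csa6G504720 measured 18.2, 15.9 and 17.1 in mutant libraries 1 to 3 and 4.42, 2.99 and 4.98 in wild type libraries 1 to 3. The mutant mean of 17.1 ± 1.14 was 4.13-fold above the wild type mean of 4.13 ± 1.03 (mean ± SD, n = 3, here and below). The log2 change was 1.83 (SE 0.20, limma adjusted p = 0.000983), the largest of the 24 genes in that direction.

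The CYP71A1-like gene Cucumis_sativus_newGene_1684 resembles a P450 known from ripening avocado fruit. It measured 5.31, 4.70 and 6.66 in the mutant and 1.05, 1.37 and 1.82 in wild type. Every mutant library lay above every wild type library, with a 3.94-fold higher mean and a change of 1.44 on the log2 scale (SE 0.19, limma adjusted p = 0.00156). The other CYP71-family gene, the CYP71B37-like Cucumis_sativus_newGene_504, went the opposite way. It measured 0.0743, 0.0565 and 0.209 in the mutant against 1.51, 1.52 and 0.810 in wild type, a mean 11.3-fold higher in wild type. All of these values are low, and the log2 change of -1.02 on the log2(value + 1) scale became -2.71 with a pseudocount of 0.1. This gene was lower under median-of-ratios scaling as well (log2 change -0.74, limma adjusted p = 0.00995).

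CYP78A5 of Arabidopsis, also called KLUH, promotes the growth of floral organs and leaves. The CYP78A5-like gene Csa5G589920 measured 8.42, 7.16 and 8.63 in the mutant and 2.93, 3.19 and 4.61 in wild type. The groups did not overlap, and the mean was 2.26-fold higher in mutant buds (log2 change 1.00, SE 0.19, limma adjusted p = 0.00487).

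Both genes of the CYP714 family, whose members oxidise gibberellins in Arabidopsis and rice, were lower as deposited, with high values in wild type libraries 2 and 3. The CYP714A1-like gene Csa5G224130 measured 1.08, 1.15 and 0.870 in the mutant and 2.34, 16.4 and 28.9 in wild type. Wild type library 1 lay close above the mutant libraries, and libraries 2 and 3 were far above them. The log2 change was -2.57 (SE 0.74, limma adjusted p = 0.0164), and the call was lost without wild type library 2 (adjusted p = 0.0554) and under median-of-ratios scaling (adjusted p = 0.0659). The CYP714C2-like gene Csa2G139860 measured 0.890, 0.818 and 0.812 in the mutant and 0.796, 13.7 and 14.2 in wild type. Here wild type library 1 was below all mutant libraries, so the groups overlapped. Its log2 change of -2.0 (limma adjusted p = 0.0437) passed, and also did without wild type library 1. When any other library was left out, adjusted p was between 0.0934 and 0.14, and under median-of-ratios scaling it was 0.188. These were the 2 of 24 genes whose highest wild type value was at least 4 times the lowest, a spread seen in 7.49% of the list. In the mutant, 0 of the 24 genes had such a spread, which 1.76% of listed genes had.

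**Figure D3:**
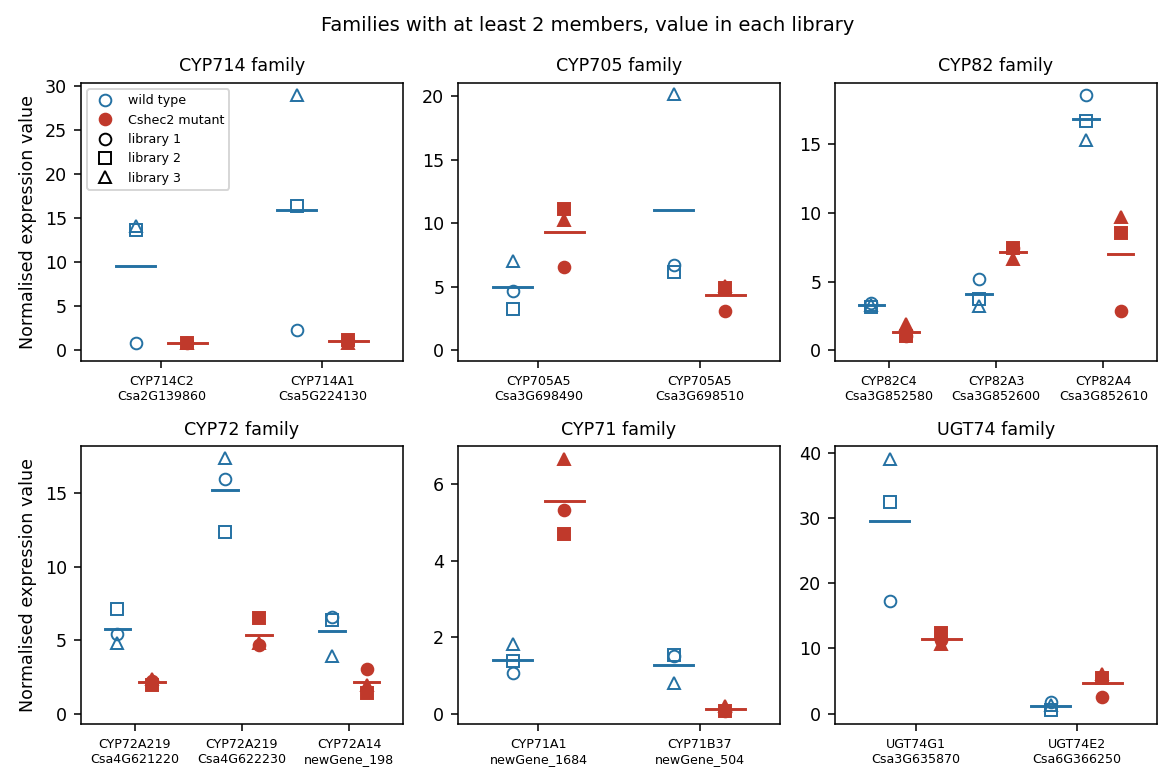
Normalised expression value in each library for the 6 families with at least 2 genes, with horizontal bars at the mean of the 3 libraries of a genotype. The CYP705, CYP82, CYP71 and UGT74 families each hold means above and below wild type, and all CYP72 and CYP714 means are lower in the mutant.

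All 3 genes of the CYP72 family were lower as deposited and remained below 0 after median-of-ratios scaling, where limma adjusted p lay between 0.0793 and 0.401. P450s of this family include triterpenoid oxidases of legumes. The CYP72A219-like gene Csa4G622230 measured 4.69, 6.52 and 4.80 in the mutant and 16, 12.4 and 17.4 in wild type. Its mean was 2.85-fold higher in wild type, with no overlap (log2 change -1.36, SE 0.20, limma adjusted p = 0.00227). The further CYP72A219-like gene Csa4G621220 measured 2.17 ± 0.192 against 5.77 ± 1.20, and the CYP72A14-like Cucumis_sativus_newGene_198 measured 2.14 ± 0.852 against 5.62 ± 1.46. The log2 change was -1.08 for each of these genes. Csa4G621720, whose identifier lies between those of the CYP72A219-like genes and which is described as a triterpenoid oxidase of the same family without the word P450, was chosen after its values were seen. It measured 1.66 ± 0.210 in the mutant and 6.19, 14.9 and 31.2 in wild type libraries 1 to 3.

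The CYP705A5-like genes Csa3G698490 and Csa3G698510 differed in direction. CYP705A5 of Arabidopsis acts on triterpenes derived from thalianol. Csa3G698490 measured 6.54, 11.1 and 10.3 in the mutant and 4.66, 3.25 and 7.01 in wild type, so mutant library 1 lay below wild type library 3. It was the 1 higher gene with overlapping groups (log2 change 0.81, limma adjusted p = 0.0344), and leaving out mutant library 2 or 3 or wild type library 2 ended the call, with adjusted p between 0.0995 and 0.108. Csa3G698510 measured 3.08, 4.92 and 5.04 in the mutant and 6.69, 6.20 and 20.2 in wild type. The groups did not overlap, but its change of -1.0 on the log2 scale (SE 0.43, limma adjusted p = 0.0579) did not pass. Leaving out wild type library 1 or 2 brought it past the threshold, with adjusted p of 0.0300 and 0.0489. Without wild type library 3 the log2 change was -0.50 (adjusted p = 0.0686), and without single mutant libraries adjusted p was between 0.0909 and 0.163. Csa3G698500, whose identifier lies between them, is described as a P450 of pterocarpan synthesis and was chosen after its values were seen. It measured 5.51, 4.79 and 14.2 in wild type against 3.61 ± 1.25 in the mutant. Among the wild type libraries, library 3 was the highest for all 3 identifiers, as it was for 51.6% of all listed genes.

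Genes of the CYP82 family with nearby identifiers also went both ways. The CYP82A3-like gene Csa3G852600 measured 7.44, 7.41 and 6.65 in the mutant and 5.22, 3.73 and 3.25 in wild type. It was higher by 0.71 on the log2 scale (SE 0.19, limma adjusted p = 0.0132) with no overlap. The CYP82A4-like gene Csa3G852610 measured 2.85, 8.50 and 9.66 in the mutant and 18.5, 16.6 and 15.3 in wild type. On the log2 scale its change was -1.28 (SE 0.38, limma adjusted p = 0.0182), and mutant library 1 was far below the other mutant libraries. Without that library the log2 change was -0.82 (limma adjusted p = 0.0198). CYP82C4 of Arabidopsis hydroxylates a coumarin secreted under iron shortage, and the CYP82C4-like gene Csa3G852580 measured 1.33 ± 0.489 against 3.30 ± 0.126 (log2 change -0.91). How reads shared by such similar genes were assigned is not known, which makes their separate values uncertain.

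Of the 4 remaining P450 genes, all were lower as deposited, and Csa5G159100 of the CYP76 family, which includes monoterpene hydroxylases, was the 1 that also passed after median-of-ratios scaling (log2 change -0.57, limma adjusted p = 0.0453). This CYP76A1-like gene measured 1.25, 2.13 and 1.76 in the mutant and 5.47, 5.08 and 5.85 in wild type, a change of -1.26 on the log2 scale (SE 0.17, limma adjusted p = 0.00186). The wild type values were even and well above the mutant. The CYP94A1-like gene Csa3G818260, related to a fatty acid omega-hydroxylase of vetch, measured 3.35 ± 0.159 against 8.06 ± 1.32 (log2 change -1.05), and -0.27 after scaling. The CYP749A22-like gene Csa5G606830 measured 3.32 ± 0.465 against 5.93 ± 0.419 (log2 change -0.69), which became 0.07 after scaling.

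CYP89A9 of Arabidopsis acts on products of chlorophyll breakdown. The CYP89A9-like gene Csa2G435510 measured 4.14, 6.04 and 4.17 in the mutant and 6.94, 6.85 and 10.1 in wild type (log2 change -0.63, limma adjusted p = 0.0299), and 0.17 after scaling. The call was lost when mutant library 1 or 3 or wild type library 3 was left out, with adjusted p between 0.0593 and 0.0957. Csa6G088170, left out of the set and also described as CYP89A9, measured 11 ± 2.14 in the mutant against 1.69 ± 0.892 in wild type.

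The 6 UGT genes split into 2 higher, 3 lower and 1 that did not pass, and UGT74 held a gene in each direction. UGT74E2 of Arabidopsis glucosylates indole-3-butyric acid, a storage form of auxin. The UGT74E2-like gene Csa6G366250 measured 2.60, 5.41 and 6.12 in the mutant and 1.73, 0.523 and 1.33 in wild type. The groups did not overlap, mutant library 1 was the lowest mutant value, and the mean was 3.94-fold higher (log2 change 1.36, SE 0.33, limma adjusted p = 0.0092). UGT74G1 of Stevia glucosylates steviol, while the reference description of the UGT74G1-like gene Csa3G635870 is UGT74F2, which acts on salicylic acid in Arabidopsis. Csa3G635870 measured 11.3, 12.3 and 10.7 in the mutant and 17.3, 32.5 and 39.0 in wild type (log2 change -1.23, SE 0.29, limma adjusted p = 0.00914). Wild type library 1 was the nearest to the mutant, and the gene passed with each library left out in turn.

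The UGT90A1-like gene Csa5G633260 had the smallest change of the higher genes and even values. It measured 14.7, 15.9 and 15.6 in the mutant and 10.3, 9.68 and 8.64 in wild type, a 1.62-fold higher mean (log2 change 0.64, SE 0.14, limma adjusted p = 0.00742). The UGT73C subfamily of Arabidopsis includes enzymes that glucosylate brassinosteroids and flavonols. The UGT73C3-like gene Csa3G744990 measured 2.65, 2.76 and 1.79 in the mutant and 10.5, 8.62 and 3.28 in wild type, where library 3 lay nearest to the mutant. Its change of -1.21 on the log2 scale (SE 0.38, limma adjusted p = 0.0208) failed the threshold when mutant library 1 or 3 or wild type library 2 was left out, with adjusted p between 0.0506 and 0.0686.

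The UGT91C1-like and UGT92A1-like genes changed sign after median-of-ratios scaling, to 0.07 and 0.28. Csa3G892740, the UGT91C1-like gene, measured 3.37, 3.71 and 3.18 in the mutant and 4.08, 5.74 and 9.54 in wild type (log2 change -0.69, SE 0.28, limma adjusted p = 0.0457). It also passed without wild type library 1. With any other library left out, adjusted p was between 0.0731 and 0.114, and without wild type library 3 the log2 change was -0.41. Csa4G017150, the UGT92A1-like gene, measured 8.62, 9.10 and 8.32 in the mutant and 7.84, 15 and 20.1 in wild type. Wild type library 1 was below every mutant library, and the log2 change of -0.57 did not pass (limma adjusted p = 0.112). Without wild type library 1 the log2 change was -0.92 and passed (adjusted p = 0.00365), and without wild type library 3 it was -0.30 (adjusted p = 0.295). The UGT count of lower genes fell from 3 to 1 when mutant library 1 or 3 or wild type library 2 was left out.

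Genes related to P450s and UGTs were gathered into 9 lists, called keyword lists here. The lists of other P450 and other glycosyltransferase genes were made by Pfam domain. Words in the descriptions made the remaining lists, of genes meant to work beside P450s and UGTs. All lists are described by their counts and medians without a test of the lists. Their counts stand beside 18.4% higher and 74.3% lower over all listed genes as deposited, and 18.4% and 14.2% after median-of-ratios scaling. Of 22 other genes with a P450 domain, 6 were higher, 14 lower and 2 did not pass (median log2 change -0.63). These 22 include the 6 genes left out of the set. Of the left-out genes, Csa6G088160, Csa6G088170 and Csa6G088710 were higher (log2 change 1.90, 2.20 and 1.66). The 3 of families 77 and 86 were lower. After scaling 6 of the 22 were higher and 2 lower, with a median of -0.02 and 5 changes of sign. Of 12 other glycosyltransferase genes with the UGT domain, 1 was higher and 10 were lower (median -0.70), and after scaling 1 was higher and 3 lower (median -0.27, 3 changes of sign). Both medians as deposited lay near the -0.77 of the whole list. Among the other P450 genes, Csa6G504430, described as an abscisic acid hydroxylase, which starts the breakdown of that hormone, measured 1.34 ± 0.152 in mutant buds against 0.222 ± 0.137. Csa6G487530, described as MAH1, a wax alkane hydroxylase of Arabidopsis, measured 2.78 ± 1.35 against 15.4 ± 2.34. Among the other glycosyltransferases, Csa4G303180, described as an iridoid glucosyltransferase, measured 0.117 ± 0.0641 against 1.27 ± 0.169, and Csa6G109730, described as an anthocyanin glucosyltransferase, measured 0.134 ± 0.0165 against 0.923 ± 0.0451. The redox partner list of 3 held 1 higher and 2 lower genes, as deposited and after scaling. In it 1 gene was a cytochrome b5, the electron carrier for some P450s, and 2 were b561 proteins matched by spelling. The cytochrome b5 gene Csa6G366540 was lower, at 3.36 ± 0.646 in mutant buds against 12.7 ± 1.96 (log2 change -1.65, SE 0.19, limma adjusted p = 0.00118), and the b561 gene Csa7G041870 measured 1.12 ± 0.206 against 4.82 ± 1.46. The other b561 gene, Csa3G073280, was the higher one, at 2.13 ± 0.274 against 1.14 ± 0.256 (log2 change 0.55, limma adjusted p = 0.0117).

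Genes of UDP-sugar supply numbered 9, of which 1 was higher and 8 lower (median -1.10), against 1 higher and 2 lower after scaling (median -0.24, 2 changes of sign). In this list 3 of the 9 were glycosyltransferases matched by the donor in their names, and they are also counted in the glycosyltransferase list. Among them was Csa1G527850, the 1 higher gene, and every gene not matched this way was lower as deposited. Csa4G618520, 1 of the 2 lower after scaling, was also among them. Csa2G146400, described as a UDP-glucuronate epimerase, which makes UDP-galacturonate for pectin, measured 24.4 ± 1.89 in mutant buds against 76.1 ± 5.16. The glycosyltransferase gene Csa4G618520, matched by its donor, measured 0.235 ± 0.147 against 2.97 ± 0.919. Beta-glucosidases remove the sugars that UGTs add. That list of 8 held 4 higher and 4 lower genes as deposited (median 0.02), and 4 higher and 1 lower after scaling (median 0.94, 1 change of sign). Of these, 4 of the 8 were glucan endo-beta-glucosidases, which act on wall polymers. The 2 with the smallest p-values were of that kind, with Csa1G660200 at 3.76 ± 0.819 against 12.4 ± 2.37 and Csa6G523410 at 5.42 ± 0.278 against 2.19 ± 0.362.

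**Figure D4:**
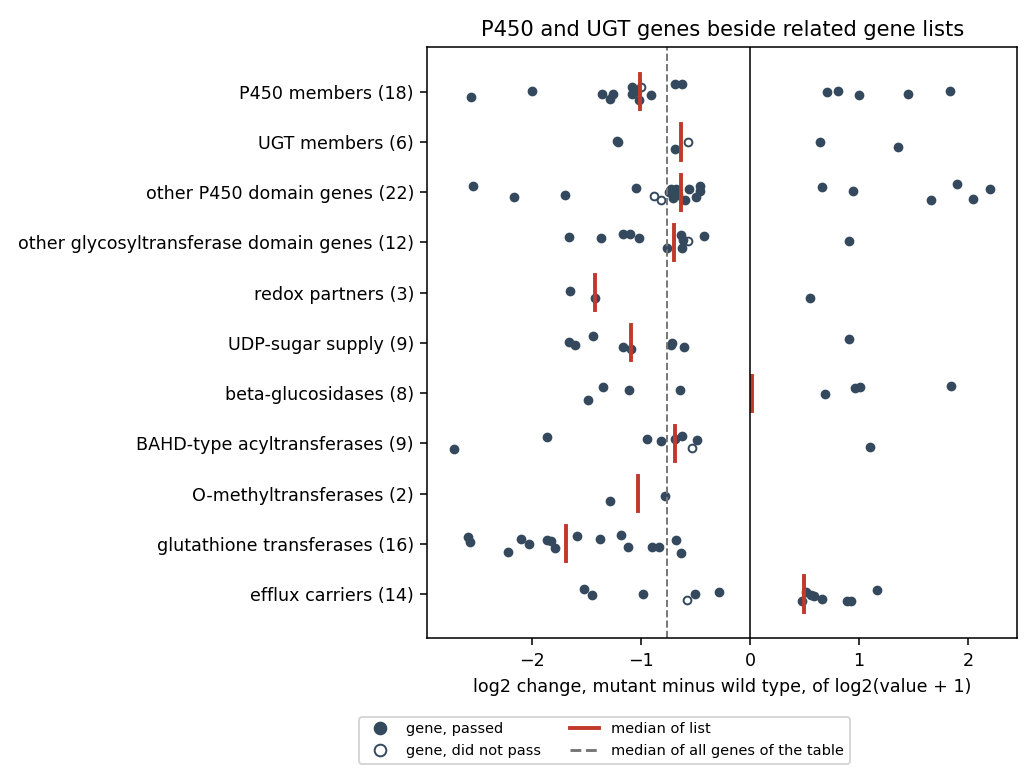
Log2 change, mutant minus wild type on the log2(value + 1) scale, of each P450 and UGT gene and of the genes in 9 related lists. The lists were made by keyword or Pfam domain, and the number of genes is in brackets. A red bar marks the median of each list and a dashed line the median of all listed genes (-0.77). All 16 glutathione transferases lie below 0, though 3 of them change sign after median-of-ratios scaling, and 8 of the 14 efflux carriers passed as higher.

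All 16 glutathione transferases, which attach glutathione to reactive compounds, were lower as deposited (median -1.69), including Csa3G133890 at 0.145 ± 0.0480 against 1.49 ± 0.206 and Csa3G133880 at 0.315 ± 0.0800 against 3.75 ± 1.14. After median-of-ratios scaling 7 of the 16 passed as lower (median -0.86), and 3 of the 16 changed sign. The share of all listed genes that passed as lower was 74.3% as deposited and 14.2% after scaling. The acyltransferase list, which was meant for BAHD enzymes that acylate alcohols and sugars, held 1 higher and 7 lower of 9 genes (median -0.69), and 2 of the 9 were glycerol-3-phosphate acyltransferases matched by spelling. After scaling the median was 0.18, 5 of the 9 changed sign, and 0 passed as lower with limma, against 1 at an unadjusted p of 0.05. Of the 9, Csa3G732400 measured 6.48 ± 0.327 against 12.3 ± 2.52, and is 1 of the 2 glycerol-3-phosphate acyltransferases. Its log2 change became 0.016 after scaling (limma adjusted p = 0.971). The malonyltransferase gene Csa1G498810 measured 10.4 ± 0.415 against 21.7 ± 6.48, and its log2 change after scaling was -0.083 (limma adjusted p = 0.845). Both methyltransferases of the list were lower as deposited, and neither passed after scaling or without mutant library 1 or 3, with Csa6G503370 at 1.84 ± 0.511 against 3.95 ± 1.31 and Csa5G589940 at 5.75 ± 0.829 against 17.7 ± 12.1. Efflux carriers of the MATE and ABC types, which move conjugates across membranes, held 8 higher and 5 lower genes of 14 (median 0.50), and 8 higher and 1 lower after scaling (median 1.04, 2 changes of sign). Csa2G049920, described as DETOXIFICATION 16, measured 3.12 ± 0.433 against 0.862 ± 0.392, and Csa4G099750, described as DETOXIFICATION 27, measured 0.529 ± 0.0813 against 3.30 ± 1.23. Whether any of these lists differs from the rest was not tested.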

How the data were processed

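RNA from 3 wild type and 3 Cshec2-/- female bud samples was sequenced. The submitters' processing notes name DESeq2, HISAT and HISAT2, with no role or version; genome build, annotation and counting: not given in the sources used here. The deposited values are a normalised expression signal per gene and library, whose unit the header does not name. Low values were mostly not multiples of the smallest value in their library. The unit may be scaled by gene length, in which case that check could not reveal counts or depth. Read depth is unknown, and no count test was run. The FDR column is the adjusted p-value and the log2FC column the log2 fold change of the authors' comparison, per the file headers. The table holds only genes the authors list as different.

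Here, limma 3.58.1 in R 4.3.3 was fitted on log2(value + 1) for all 1589 genes with a variance trend, without a filter, and p-values were adjusted by Benjamini-Hochberg over the table. Adjustment over preselected genes gives smaller values than adjustment over a transcriptome would. In simulated data for mutant against wild type, over 1589 genes, 69% of 100 genes changed by 1 on the log2 scale and 90% of 100 changed by 2 were recovered, with 4 false calls; that simulation left most genes unchanged, so these rates do not carry over. All 24 genes were tested. Full statistics are given for the 4 P450 and 4 UGT genes per direction with the largest change among passing genes without overlap, and for the largest change in each family of 2 or more; in each keyword list up to 2 passing genes with the smallest p-value are named. The genes and lists were chosen with earlier results of these data known. Alternatives were median-of-ratios scaling, pseudocounts of 0.1 and 0.5, a mean of at least 1, no trend, the replicate block, each library left out, other thresholds and choice by Pfam domain. The RefSeq gene table matched 0 of the 24 identifiers, so no coordinates or sequences are given. Figures were drawn with matplotlib 3.10.9.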

Additional observations from a re-analysis of the deposited data

How the results depend on the processing

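Of the 22 genes that passed, 16 passed with each library left out and 6 did not. When a library was left out, 0 of the 24 changed direction. Shares over all listed genes with libraries left out are not given here. These counts are therefore not read as particular to the 24 genes. With single libraries left out, the higher genes numbered 6 to 7 and the lower genes 11 to 17 in all, 4 to 5 and 10 to 13 among P450s, and 2 and 1 to 4 among UGTs; the median log2 change ranged from -1.07 to -0.82 for P450s and from -0.93 to -0.35 for UGTs. After median-of-ratios scaling 2 genes were lower with limma, both P450s. Of the UGTs 0 were lower, also at an unadjusted limma p of 0.05. Medians were -0.28 for P450s and 0.18 for UGTs. Csa5G606830 (0.070), Csa2G435510 (0.17), Csa3G892740 (0.075) and Csa4G017150 (0.28) changed sign there. So did 21 keyword-list genes, among them Csa3G732400 (0.016). Scaling moved the whole list upward, and the reason for that offset was not tested. An adjusted p of 0.01 left 9 lower genes, 3 higher P450s and 1 lower UGT; a log2 change of at least 1 left 4 higher genes, 3 of them P450s and 1 a UGT. Choice by Pfam domain takes in 49 of the 58 genes with either domain after the same exclusions, 31 P450s and 18 UGTs. It gave 10 higher genes, 7 P450s and 3 UGTs, and 34 lower genes, 21 P450s and 13 UGTs. The median over all 31 P450s was -0.82. A pseudocount of 0.1 moved the P450 median to -1.27 and put Cucumis_sativus_newGene_504 (-2.71) below Csa2G139860 (-2.58). A mean of at least 1, a pseudocount of 0.5 and fits without the trend kept every count within 1.5 times and every call of the genes tested. Replicate numbers were not taken to pair the samples. For this, the deviations of log2 values from the mean of their genotype were correlated across genes. Deviations of same-numbered libraries correlated at -0.09, -0.04 and -0.18, and none of the mutant libraries matched its own number best. Deviations within a genotype sum to 0 in each gene, so these values cannot settle whether samples were paired. With the replicate block 7 genes were higher and 14 lower, 12 of the lower P450s and 2 UGTs, with medians of -1.01 and -0.63; Csa2G435510 (adjusted p = 0.0597) and Csa3G892740 (0.0599) lost their calls and Csa3G698510 (0.0370) gained one. Depth is unknown, and 3 libraries per genotype limit precision.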

Other observations

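Some related genes outside the set stood in runs of nearby identifiers. All the related genes named here but Csa4G618520 were chosen after their values were seen. Csa4G618500, Csa4G618510 and Csa4G618520, described as flavonoid or anthocyanidin glucosyltransferases, which add sugars to pigments, were all lower as deposited, and Csa4G618510 changed sign after median-of-ratios scaling (0.09). Csa4G618520 measured 3.99, 2.20 and 2.73 in wild type libraries 1 to 3 and 0.401, 0.188 and 0.118 in the mutant libraries, with no overlap (log2 change -1.67, SE 0.19, limma adjusted p = 0.00113). It also passed as lower after scaling (log2 change -1.24, limma adjusted p = 0.0023). Csa4G618500 measured 1.52 ± 0.109 in mutant buds against 5.05 ± 2.68, and did not pass after scaling (log2 change -0.50, limma adjusted p = 0.213). Csa4G618510 measured 2.30 ± 0.0414 against 4.18 ± 1.40. Over the whole list 74.3% of genes were lower as deposited and 14.2% after scaling. Csa7G058650, outside this run and described as an iridoid-type glucosyltransferase, was also lower as deposited, at 72.2 ± 5.26 in the mutant against 189 ± 26.7. After scaling it did not pass (log2 change -0.45, limma adjusted p = 0.174).

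Of the 4 other P450-domain genes in the list whose identifiers lie near that of the CYP76A1-like gene Csa5G159100, 1 was higher, 2 were lower and 1 did not pass. Csa5G157290, described as a geraniol hydroxylase, measured 1.28 ± 0.554 in mutant buds against 0.417 ± 0.121 (log2 change 0.66, limma adjusted p = 0.013). As deposited, Csa5G157260, with the same description, went the other way, at 1.21 ± 0.0583 against 2.55 ± 0.229. So did Csa5G159610, described as a flavonoid hydroxylase, at 0.216 ± 0.0546 against 0.681 ± 0.144. Neither of these lower genes passed after median-of-ratios scaling (log2 change -0.09 and -0.21, limma adjusted p = 0.666 and 0.196). Csa5G158600, described as ferruginol synthase, measured 10.2 ± 0.904 against 20.7 ± 11 and did not pass (limma adjusted p = 0.0691). Its log2 change rose above 0 after scaling (0.04). For the CYP714 genes, the authors' deposited table gives a log2 fold change of -1.10 for Csa5G224130 and of -0.83 for Csa2G139860, while their wild type means lay 15.4-fold and 11.4-fold above their mutant means. The reason for that gap was not tested.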
